A study of Mus musculus with 36 samples.

Results

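Collagen genes were followed in mouse embryonic stem cells cultured on soft hydrogels, stiff hydrogels and plastic. The collagen genes were taken as every gene of the count table whose mouse symbol has the form Col, a number, a and a number (such as Col4a1), which gave 44 of 49671 genes. Of these, 23 had a mean of 1 CPM (counts scaled to library size) or more over all 36 libraries and are described in every group, and the other 21 lay below that level.

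Collagens are secreted proteins in which 3 chains wind around each other into a triple helix. Fibrillar collagens (types I, II, III, V, XI and XXVII among them) form the ropes of connective tissue, and FACIT collagens such as types IX and XII attach to the surface of those fibrils. Type IV forms the network of basement membranes, the thin sheets that underlie epithelia and that early embryonic cells lay down, and type XVIII is a heparan sulfate collagen of the same sheets. Type VI forms beaded filaments, type VII anchors epithelia to the matrix beneath, type VIII forms short-chain networks, and types XIII and XVII span the cell membrane.

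The cells were wild-type mouse embryonic stem cells (129m in the labels, the E14 line in the methods), so 1 line stands for all groups. They grew in serum medium on StemBond hydrogels, polyacrylamide gels that hold fibronectin covalently and were made soft or stiff, or on tissue culture plastic. LIF is the cytokine that sustains self-renewal of these cells, and PD03 (PD0325901) blocks MEK, the kinase upstream of ERK. The 11 groups were serum + LIF at 24 h on soft and on stiff, serum + LIF at 48 h on soft, on stiff and on plastic, and, each at 48 h on soft and on stiff, serum alone, serum + PD03 and serum + LIF + PD03. Each group held 3 libraries except soft serum + PD03, which held 6. Serum was in every medium, and the paper describes a fibronectin coat on plastic as well as on the hydrogels.

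Library totals ran from 10405696 to 26635239 counts, and collagen genes together made up 718 to 1569 CPM of a library. Every library of the 24 h groups and of plastic came from 1 sequencing pool, so the 24 h soft and stiff libraries could be compared within a pool. At 48 h, stiff libraries came mostly from another pool and soft libraries mostly from yet another, so that substrate and pool nearly coincide there and cannot be told apart. PD03 and LIF comparisons on 1 substrate lay mostly within a pool. Embryonic stem cell markers were present in every group, with means over the 36 libraries of 591 CPM for Pou5f1, 475 for Nanog and 1204 for Sall4. Markers of fibroblasts, cells known for collagen synthesis and used as feeder layers, had mean levels of 45.0 CPM for Fbln1, 6.84 for Thy1, 5.12 for Pdgfrb, 3.03 for Twist1, 0.907 for Postn, 0.484 for Dcn, 0.328 for Prrx1 and 0.0347 for Lum. In these bulk libraries, fewer cells of a type and less RNA per cell cannot be told apart.

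Col4a1 and Col4a2, the chains that make up the common type IV network, are shown with their promoters because they start head to head and were called in the same comparisons, in the same direction. Col4a1 (ENSMUSG00000031502, chr8:11198423-11312826, minus strand) and Col4a2 (ENSMUSG00000031503, chr8:11312805-11449287, plus strand) have Ensembl starts 21 bases apart in GRCm38 and share 22 exon bases on opposite strands. Reads from those bases cannot be assigned to 1 gene without strand, whose setting in counting is not given in the sources used here. The 300-base windows below run from 250 bases before to 50 bases from the start of each gene, are given 5′ to 3′ on the gene's own strand from the RefSeq table of GRCm38.p6, and overlap by 78 bases. Capitals mark GGGCGG, the core of the GC box, and CCAAT, each on either strand. The Col4a1 window is chr8:11312777-11313076 (minus strand) and the Col4a2 window is chr8:11312555-11312854 (plus strand).
Col4a1 promoter: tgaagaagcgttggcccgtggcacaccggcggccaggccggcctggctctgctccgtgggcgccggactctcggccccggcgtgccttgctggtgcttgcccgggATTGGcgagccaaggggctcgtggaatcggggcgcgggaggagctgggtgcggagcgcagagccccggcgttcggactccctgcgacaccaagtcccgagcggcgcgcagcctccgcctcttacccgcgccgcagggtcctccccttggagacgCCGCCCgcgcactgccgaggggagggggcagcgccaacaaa
Col4a2 promoter: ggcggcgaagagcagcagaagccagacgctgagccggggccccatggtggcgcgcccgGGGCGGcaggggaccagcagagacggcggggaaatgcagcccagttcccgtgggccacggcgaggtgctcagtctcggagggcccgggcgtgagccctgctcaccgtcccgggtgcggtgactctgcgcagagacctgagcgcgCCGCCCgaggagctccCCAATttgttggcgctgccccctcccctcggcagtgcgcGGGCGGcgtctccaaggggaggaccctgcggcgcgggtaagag

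Both windows were rich in G and C, at 74% and 73.7% of bases against a median of 52.7% over all 32851 windows of the table. A window was found for 18 of the 23 described genes and none for Col1a1, Col12a1, Col2a1, Col5a2 and Col22a1. GGGCGG on either strand was in a window of 15 of the 18 genes and in 35.7% of all windows. Over all 35 collagen genes with a window, described or not, it was in 22. CCAAT was in a window of 10 of the 18 genes, of 13 of the 35, and in 37.4% of all windows. TATAAA, the core of the TATA box, was in a window of Col13a1 and Col17a1 and in 13.6% of all windows. The AP-1 motif TGANTCA was found in Col6a1 and in 7.81% of windows, the TEAD motif GGAATG in Col18a1 and in 14.7%, and the CArG box of serum response factor in Col6a4 and in 1.63%, each searched on both strands. These matches describe letters in a window and not bound sites.

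Col18a1, Col4a1 and Col4a2 held most of the collagen message of these cells. Col18a1 (ENSMUSG00000001435, chr10:77052178-77166548) averaged 458 CPM over the 36 libraries, Col4a1 284 CPM and Col4a2 159 CPM, and the 3 genes carried between 80.2% and 88.8% of collagen CPM in each library. The same 3 led per length, with mean RPKM (CPM divided by gene length in kilobases, over the union of a gene's exons) of 65.3, 38.1 and 24. Next per length came Col1a1, the main chain of type I collagen, at 5.34 RPKM, Col9a2 of the FACIT type IX at 4.51 RPKM and Col5a1, a chain of type V that nucleates fibrils, at 3.55 RPKM. The remaining described genes were below 1 RPKM.

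By class, the 2 multiplexins (types XV and XVIII) took 43.5% of the collagen CPM and the 6 type IV chains 42.3%. The 11 fibrillar genes took 9.82%, the 9 FACIT genes 2.48%, the 6 beaded filament genes 0.613%, the anchoring fibril gene Col7a1 0.456%, the 4 transmembrane genes 0.414% and the 3 short-chain genes 0.285%. Of the fibrillar genes, 8 of 11 reached 1 CPM: Col1a1 (35.1 CPM), Col5a1 (30.2), Col11a1 (10.6), Col2a1 (8.48), Col5a3 (5.8), Col27a1 (5.1), Col5a2 (3.39) and Col1a2 (3.25). The FACIT genes that did so were Col9a2 (14 CPM), Col12a1 (7.9) and Col22a1 (1.13). The rest were Col4a5 of type IV (1.44 CPM), Col7a1 (4.81), Col13a1 (2.59) and Col17a1 (1.06), Col8a1 (1.55) and Col8a2 (1.12), and Col6a5 (1.85), Col6a4 (1.28) and Col6a1 (1.14). The lowest of the described genes was Col17a1, and the highest of those left out was Col26a1 at 0.938 CPM.

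The other 21 genes had means from 0.0313 CPM (Col28a1, 18 counts in 12 libraries) to 0.938 CPM, and 13 of them passed the filter on low counts. Col3a1, the type III fibrillar chain that accompanies type I in soft tissues, averaged 0.856 CPM and was highest on plastic at 1.71 CPM. Col16a1 (0.865 CPM) was highest on stiff serum + LIF + PD03, Col26a1 on stiff at 24 h (1.57 CPM), Col20a1 (0.76 CPM) on soft serum + LIF + PD03, Col14a1 on soft serum (1.2 CPM) and Col4a6 (0.47 CPM) on plastic. Col6a2, Col9a3, Col6a6, Col6a3, Col11a2, Col23a1 and Col10a1 lay between 0.341 and 0.825 CPM. The 8 genes that did not pass were Col15a1, Col25a1, Col4a4, Col24a1, Col4a3, Col9a1, Col19a1 and Col28a1, with means of at most 0.27 CPM, and no change can be read from them at this depth.

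Partner chains of 1 trimer were not at equal levels per length. The Col4a1 to Col4a2 ratio of RPKM averaged 1.59 over libraries and stayed between 1.30 and 1.81. Col1a1 exceeded Col1a2 by a mean ratio of 20.9, with libraries from 10.3 to 38.1. Col5a1 exceeded Col5a2 by a mean ratio of 14.8, with libraries from 6.05 to 29.6. Group means of the Col5a1 to Col5a2 ratio were at most 8.15 in the 4 PD03 groups and 16.2 to 23.4 in the 7 groups without PD03, so these sets of groups did not overlap. The Col1a1 to Col1a2 ratio went the other way, with group means of 24.8 to 28.5 with PD03 and 11.2 to 22.2 without. Its single libraries overlapped, with 17.7 the lowest with PD03 and 24.6 the highest without. The Col1a1 and Col5a1 ratios rest on low counts of the partner chain and on the gene length used, and with the longest transcript in place of the exon union they were 9.97 and 10.3.

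**Figure D1:**
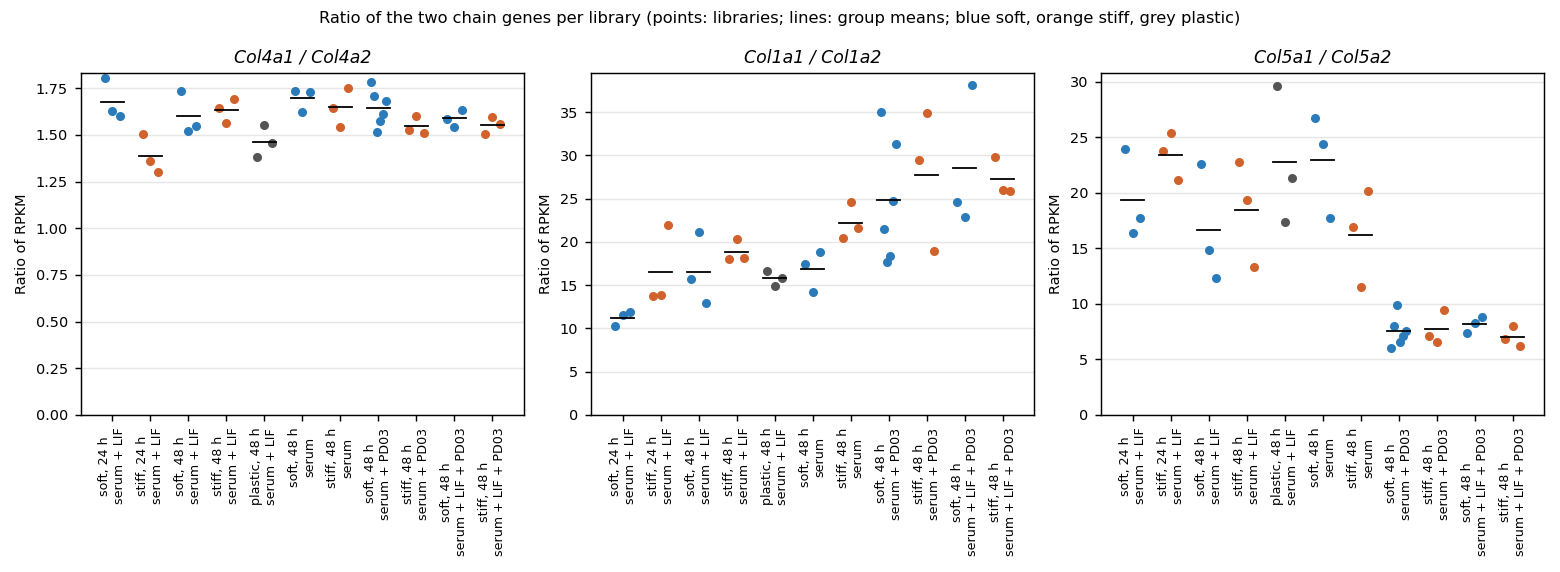
Ratio of RPKM between partner chains of type IV, type I and type V collagen, one point per library in the 11 groups, on linear axes that start at 0. The Col4a1 to Col4a2 ratio stays between 1.30 and 1.81. In the 4 PD03 groups the Col5a1 to Col5a2 ratio is lower than in the 7 others, and group means of the Col1a1 to Col1a2 ratio are higher.

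**Figure D2:**
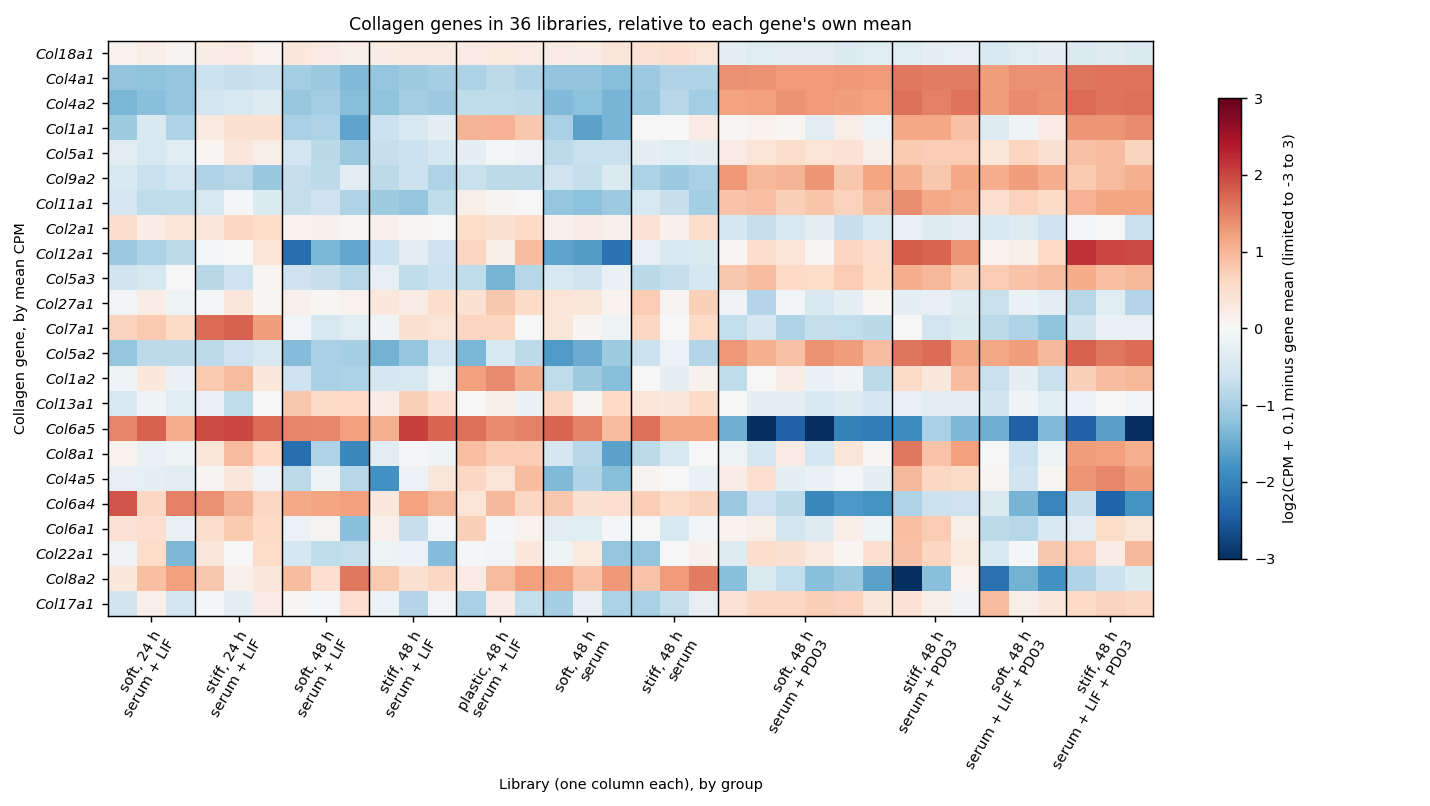
Level of the 23 described collagen genes in the 36 libraries, as log2(CPM + 0.1) minus the gene's mean and limited to 3 in either direction, with libraries ordered by group. The PD03 libraries stand apart from the rest, with Col4a1, Col4a2 and most fibrillar genes high and Col6a5, Col6a4 and Col8a2 low.

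The first comparison asked whether collagen genes differed between soft and stiff hydrogels in cells of the same age and medium, at 24 h in serum + LIF, where both groups came from 1 pool. Collagen genes were lower on soft: 6 of 23 fell and 0 rose by edgeR at a Benjamini-Hochberg adjusted p below 0.05, against 2.52% of the 17702 tested genes lower and 1.03% higher. The median log2 fold change of the 23 was -0.40, and of all tested genes it was near 0. At an unadjusted p below 0.05, 9 of the 23 were lower and 1 was higher, beside 2611 of the 17702 tested genes in either direction. DESeq2 also called 6 lower and none higher. The 6 genes came from 4 classes: type IV (Col4a1, Col4a2), the fibrillar Col1a1 and Col5a1, the FACIT Col12a1 and the anchoring fibril gene Col7a1.

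Col4a2 was 43.6, 47.3 and 49.8 CPM in the soft libraries and 75.4, 80.8 and 85.6 CPM in the stiff ones, with no overlap. Its log2 difference, soft minus stiff, was -0.78 ± 0.07 (SE, edgeR adjusted p = 1.39e-12). Col4a1 was 86.7, 88.9 and 89.9 CPM on soft and 124, 126 and 128 CPM on stiff, -0.51 ± 0.06 (adjusted p = 7.44e-09). Both type IV chains were lower in every soft library than in any stiff library.

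Col1a1 (ENSMUSG00000001506, chr11:94936224-94953042) was 14.2, 15.6 and 21.8 CPM on soft and 36.1, 41 and 41.2 CPM on stiff, a log2 difference of -1.19 ± 0.14 (edgeR adjusted p = 2.15e-08). Col12a1 (ENSMUSG00000032332, chr9:79598991-79718831), a fibril-associated collagen of load-bearing tissue, was 2.61, 2.95 and 3.3 CPM on soft and 5.53, 5.78 and 7.66 CPM on stiff, -1.09 ± 0.21 (adjusted p = 0.000436). Neither gene overlapped between the groups. Col5a1 and Col7a1 fell as well, at -0.60 ± 0.10 and -0.91 ± 0.17 (adjusted p = 1.56e-05 and 0.000307).

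Col18a1, the most abundant collagen, differed by -0.07 ± 0.05 on the log2 scale, with a 95% interval of -0.16 to 0.02, and did not pass the test. Col1a2, the partner of Col1a1, was -0.70 (adjusted p = 0.0655) and Col8a1 was -0.79 (adjusted p = 0.174), both short of the threshold.

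At 48 h the same question was put in 4 media, each with soft and stiff libraries mostly from different pools. In serum + LIF, 3 of 23 collagen genes were lower on soft and 0 higher, with backgrounds of 0.333% lower and 0.446% higher. In serum alone the count was 10 lower and 0 higher against 2.77% and 2.08%. In serum + PD03 it was 8 lower and 0 higher against 3.42% and 2.13%, and in serum + LIF + PD03 11 lower and 0 higher against 4.82% and 2.8%. Median log2 differences of the 23 genes were -0.17, -0.26, -0.38 and -0.33 in that order. No collagen gene was called higher on soft by edgeR or DESeq2 in any of the 4 media, and at an unadjusted p below 0.05 the number higher was 1 in serum alone and 0 in each of the other media. Among tested genes of at least 1 CPM, the share lower on soft was 3.16% at 24 h and 0.428%, 3.51%, 4.26% and 5.98% in the 4 media at 48 h.

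The 5 soft and stiff comparisons are counted here in fits without a sequencing pool term. Col1a1 and Col12a1 were called lower in all 5, and Col4a1, Col4a2 and Col5a1 in 4. Col11a1, Col1a2 and Col8a1 were called in 3, Col7a1, Col5a2 and Col4a5 in 2, and Col18a1 in 1. The other 11 genes were called in none: Col9a2, Col2a1, Col5a3, Col27a1, Col13a1, Col6a5, Col6a4, Col6a1, Col22a1, Col8a2 and Col17a1. Of these, Col9a2 had a value above 0 in each comparison, from 0.11 to 0.42, and Col6a1 a value below 0 in each, from -1.04 to -0.12.

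Col1a1 was lower on soft in each medium at 48 h. In serum + LIF Col1a1 was 9.81, 15.1 and 15.6 CPM on soft and 18.9, 21.7 and 24.5 on stiff, a log2 difference of -0.69 ± 0.15 (edgeR adjusted p = 0.0135). In serum it was 9.75, 11.2 and 15 CPM on soft and 29.7, 30.2 and 35.5 on stiff, -1.40 ± 0.14 (adjusted p = 8.62e-10). With PD03 the 6 soft serum libraries ran from 24 to 34.3 (median 30.7) CPM against 55.2, 66.4 and 66.8 on stiff, -1.08 ± 0.10 (adjusted p = 7.08e-11). With LIF and PD03 together the values were 22.8, 27.7 and 35.1 CPM on soft and 75, 75.1 and 79.2 on stiff, -1.43 ± 0.12 (adjusted p = 9.54e-13). The soft and stiff libraries of Col1a1 did not overlap in any of the 4 media.

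Taking the media in the order LIF, serum alone, PD03 and LIF with PD03, Col12a1 showed log2 differences of -1.20 ± 0.25, -1.50 ± 0.23, -1.28 ± 0.14 and -1.75 ± 0.16 (edgeR adjusted p = 0.00885, 1.02e-05, 6.80e-10 and 4.41e-12). In serum + LIF + PD03 the soft libraries were 6.26, 6.53 and 8.83 CPM and the stiff ones 23.2, 23.5 and 26.1. With a sequencing pool term added, Col1a1 and Col12a1 kept their calls in every medium but serum + LIF at the assignment, of 45 possible ones of libraries to pools, that gave the smallest change. In serum + LIF that assignment ended both calls, at -0.35 for Col1a1 and -0.75 for Col12a1.

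The type IV pair did not pass in serum + LIF at 48 h and passed in the other 3 media, where most of these calls depended on leaving sequencing pool out of the fit. Col4a1 was -0.08 in serum + LIF (95% interval -0.19 to 0.04, adjusted p = 0.683), and -0.26 ± 0.06, -0.25 ± 0.05 and -0.29 ± 0.05 in the other media in the same order, with edgeR adjusted p of 0.00262, 0.000111 and 0.000107. Col4a2 was -0.05 in serum + LIF (adjusted p = 0.867) and -0.30 ± 0.07, -0.34 ± 0.05 and -0.32 ± 0.06 in the others. At the pool assignment with the smallest change, Col4a1 lost its call in all 3 media (edgeR adjusted p = 0.394, 0.0563 and 0.157) and Col4a2 in serum alone (0.253) and in LIF with PD03 (0.0947), while Col4a2 kept it in PD03 without LIF (0.00272). Col4a5, an X-linked type IV chain, was lower on soft in serum (-1.27 ± 0.37, adjusted p = 0.0311) and in serum + LIF + PD03 (-1.55 ± 0.29).

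Further genes were called in some media. The calls given here of Col4a5, Col1a2, Col11a1, Col5a2, Col8a1 and Col18a1 were all lost at the pool assignment with the smallest change. Their edgeR adjusted p there ran from 0.0821 to 0.705. Col5a1 lost its 48 h calls there too, in serum alone, PD03 and LIF with PD03. Col7a1 lost its 48 h call in LIF with PD03, both there and by DESeq2. Col1a2 was lower on soft in serum (-1.02 ± 0.25), serum + PD03 (-0.89 ± 0.19) and serum + LIF + PD03 (-1.47 ± 0.22), and Col11a1 was lower in the same media with log2 differences of -0.48 ± 0.15, -0.38 ± 0.10 and -0.55 ± 0.11. Col5a2 was lower in serum (-0.90 ± 0.27, edgeR adjusted p = 0.0428) and in serum + LIF + PD03 (-0.55 ± 0.17, adjusted p = 0.036). Col8a1, a short-chain network collagen, was lower in serum + LIF (-1.64 ± 0.42, adjusted p = 0.0393), serum + PD03 (-1.31 ± 0.24) and serum + LIF + PD03 (-1.49 ± 0.29). Col18a1 passed once, in serum, at -0.15 ± 0.05 (adjusted p = 0.0401), where its soft libraries were 524, 533 and 576 CPM and its stiff libraries 594, 600.4 and 622.

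Markers of other cell types moved in part with these collagens. Of the endoderm list, Dab2 (mean 52.2 CPM) was lower on soft at 24 h (-0.39, edgeR adjusted p = 0.00584) and with PD03 at 48 h both without LIF (-0.36) and with it (-0.44), and Lama1 was higher on soft in serum + LIF (0.22) and serum alone (0.31), with 1 of 9 genes called in each comparison. Of 3 smooth muscle markers, Myocd (mean 0.937 CPM) was lower on soft at 24 h (-1.71, edgeR adjusted p = 0.02). The others, Des (0.05) and Myh11 (0.06), were not called there. Embryonic stem cell markers were called higher on soft in 3 of 6 cases at 24 h, among them Nanog (0.35), and in 0, 4, 3 and 4 of 6 in the media at 48 h in the order above, with 3 of 6 higher in serum + LIF at an unadjusted p below 0.05. Of the 7 tested fibroblast and mesenchyme markers, 0 passed by edgeR in any of the 5 soft and stiff comparisons, but at an unadjusted p below 0.05 the number lower on soft was 1 at 24 h and 0, 4, 3 and 3 in the media at 48 h in the order above, with 0 higher. The summed level of the 8-gene list, mostly Fbln1, overlapped between soft and stiff at 24 h (53.5 to 57.7 and 50.9 to 58.9 CPM) and in serum + LIF + PD03 (53.3 to 60.1 and 58.3 to 63.7 CPM), and not in serum alone (63.2 to 66.7 and 68.4 to 75.0 CPM). Dcn averaged 0.542 CPM on soft and 1.26 CPM on stiff in serum alone and 0.0162 and 0.182 CPM in serum + LIF + PD03, where Postn averaged 1.01 and 2.34 CPM. Lum was at 0 in every library of that medium. The part of such cells in the collagen differences was not tested.

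A pool term lowered the counts at 48 h. Over the 45 assignments the number of collagen genes called was 0 to 2 in serum + LIF, 2 to 6 in serum alone, 4 to 8 in serum + PD03 and 3 to 8 in serum + LIF + PD03, and at 24 h it was 6 to 7. Leaving out single libraries most often ended the calls of Col8a1 in serum + LIF, of Col18a1, Col11a1 and Col4a5 in serum alone (5 of 6 fits each), and of Col7a1 (5 of 6) and Col5a2 (6 of 6) in serum + LIF + PD03.

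**Figure D3:**
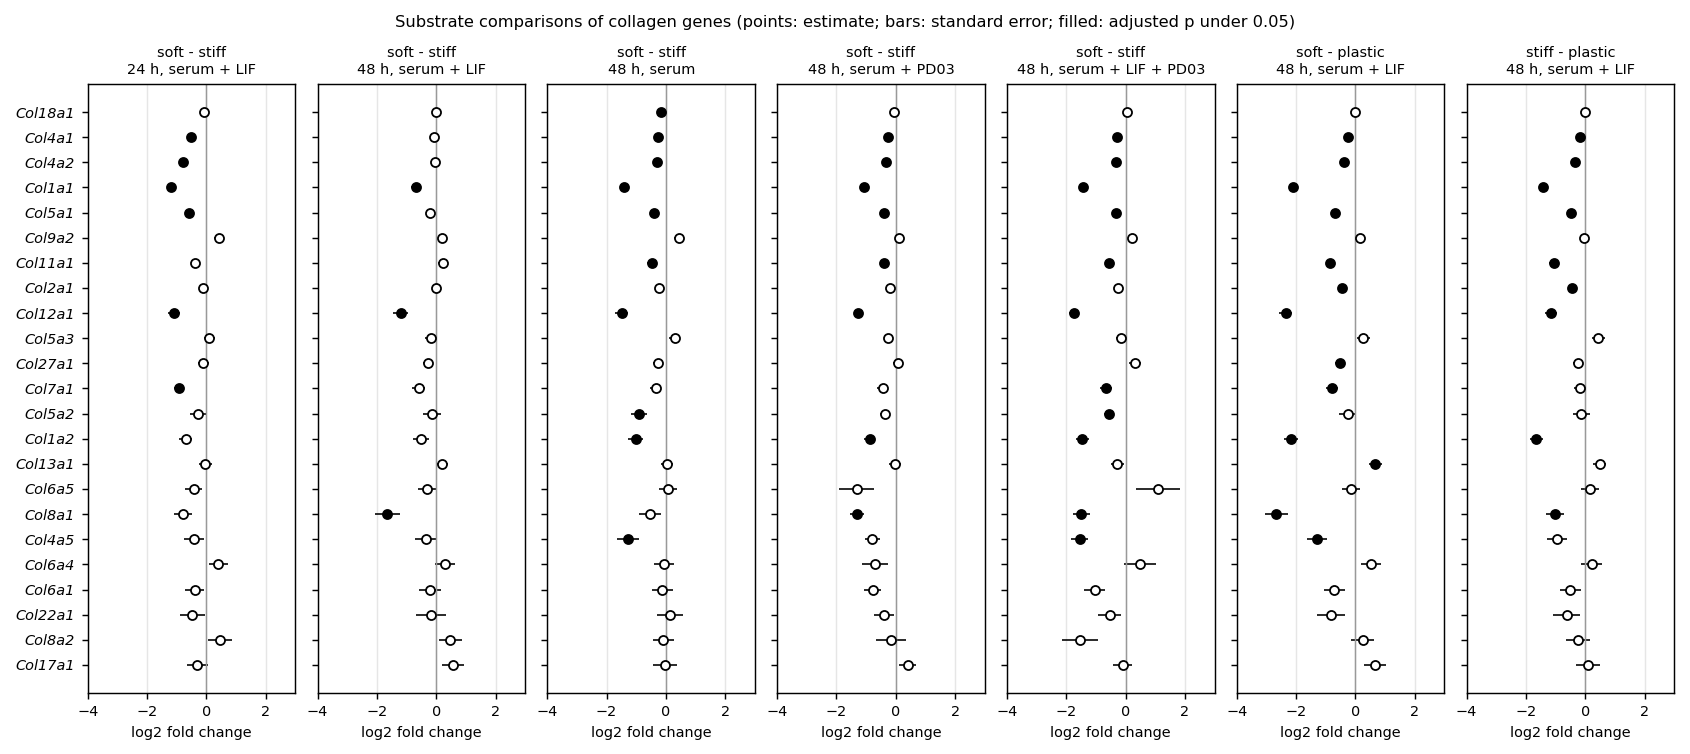
Log2 difference of the 23 described collagen genes, with bars of the standard error, in 7 panels: soft minus stiff at 24 h and in 4 media at 48 h, then soft minus plastic and stiff minus plastic. Col1a1 and Col12a1 lie below 0 in every panel, and no gene is called higher in the 5 soft and stiff panels.

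**Figure D4:**
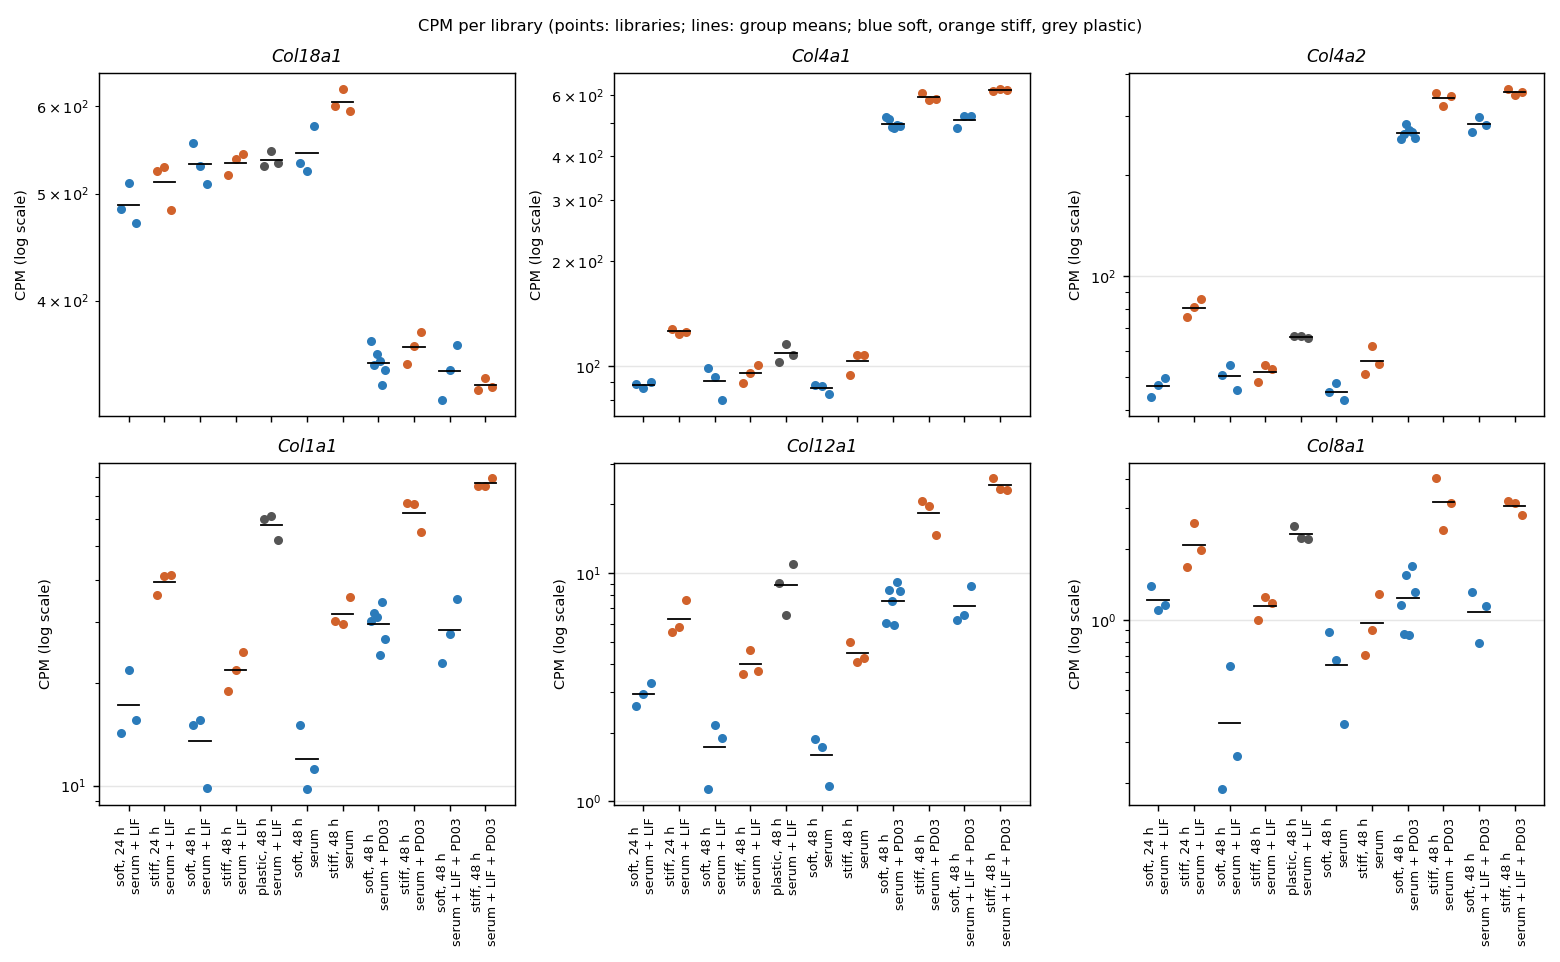
CPM of 6 collagen genes (Col18a1, Col4a1, Col4a2, Col1a1, Col12a1 and Col8a1) in each library of the 11 groups, on a log axis. Col1a1 and Col12a1 are lower on soft than on stiff in each medium, Col4a1 and Col4a2 are high in the 4 PD03 groups, and Col18a1 is low there.

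In serum + LIF at 48 h, both hydrogels were set against tissue culture plastic. The 3 plastic libraries shared a pool with 1 of the 3 stiff libraries and with none of the soft ones. Soft gels had 12 of 23 collagen genes lower and 1 higher than plastic, with backgrounds of 6.47% lower and 5.29% higher. Stiff gels had 9 lower and 0 higher, with backgrounds of 3.59% lower and 1.95% higher. Of genes with at least 1 CPM, 7.9% and 4.55% were lower in these comparisons. DESeq2 called none higher on stiff either, and at an unadjusted p below 0.05 the number higher was 1. Both comparisons share the plastic libraries. Of the 9 primitive and parietal endoderm markers, 4 were higher on soft than on plastic, and 5 were higher and 1 lower on stiff, while of the 7 tested fibroblast markers 2 were higher and 1 lower on each gel. Thy1 (0.68 on soft and 0.69 on stiff) and Fbln1 (0.37 and 0.25) were higher and Pdgfrb (-0.72 and -0.58) was lower. Dcn averaged 1.39 CPM on plastic, 0.652 on stiff and 0.574 on soft and was called on neither gel (edgeR adjusted p = 0.158 on stiff and 0.058 on soft). The part of these cells in the result was not tested. With a pool term the collagen counts were 2 to 8 on soft and 3 to 7 on stiff, and 2 of the soft calls, Col27a1 and Col4a5, reversed to 0.11 and 0.52.

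Col1a1 was 52.1, 60.3 and 61.3 CPM on plastic, above every soft and stiff library in serum + LIF. Its log2 difference from plastic was -2.10 ± 0.14 on soft and -1.41 ± 0.13 on stiff (edgeR adjusted p = 1.77e-16 and 2.94e-11). Col12a1 was 6.54, 9.02 and 11 CPM on plastic, against 1.13, 1.9 and 2.16 on soft and 3.63, 3.74 and 4.59 on stiff, with differences of -2.35 ± 0.22 and -1.15 ± 0.19. Col1a2 differed by -2.16 ± 0.24 on soft and -1.65 ± 0.22 on stiff, and Col8a1 by -2.66 ± 0.38 and -1.02 ± 0.31. For Col1a1, Col12a1 and Col8a1 the mean levels ran in the order plastic, stiff, soft, and each step was called in its own test without a pool term. At the pool assignment with the smallest change, the soft and stiff step lost its call for all 3 genes (edgeR adjusted p = 0.901, 0.676 and 0.705), as did the stiff and plastic step of Col12a1 (0.078) and of Col8a1 (0.484) and the soft and plastic difference of Col8a1 (0.231). The stiff and plastic step of Col8a1 was also lost whenever 1 library was left out (6 of 6 fits).

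Col11a1 and Col2a1, cartilage fibril collagens, were lower than plastic on both gels (-0.85 ± 0.14 and -0.45 ± 0.13 on soft, -1.07 ± 0.14 and -0.46 ± 0.13 on stiff). Type IV chains were lower too, with Col4a1 at -0.26 ± 0.06 on soft and -0.19 ± 0.06 on stiff and Col4a2 at -0.39 ± 0.07 and -0.34 ± 0.07. Col5a1 was -0.68 ± 0.10 and -0.48 ± 0.10. Col7a1, Col4a5 and Col27a1 were called lower on soft than on plastic and not on stiff than on plastic (-0.79, -1.30 and -0.52), and in the direct test of soft against stiff in this medium none of the 3 passed. Col13a1, a transmembrane collagen, was the gene called higher on soft (0.67 ± 0.21, edgeR adjusted p = 0.0252). That call was lost with no filter on low counts (adjusted p = 0.0737), with only the groups compared in the fit (0.0546) and in 3 of 6 fits that left out a library, and with a pool term the value went down to 0.0401 (adjusted p = 0.988). The soft and plastic calls that remained at the assignment with the smallest change were Col1a1 and Col12a1, and the stiff and plastic ones were Col1a1, Col11a1 and Col1a2.

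PD03 gave more calls among collagen genes than any other comparison. With MEK blocked, type IV and most fibrillar and FACIT genes rose while Col18a1, Col6a5, Col6a4 and several others fell, on both substrates and with or without LIF. Of the 23 genes, 10 were higher in all 4 comparisons, 7 were lower in all 4, and none was called in both directions. The counts were 10 higher and 8 lower on soft with LIF, against backgrounds of 27.8% and 26.6%. On soft without LIF they were 13 and 8 against 29% and 28.5%. On stiff they were 14 and 7 with LIF, against 28.3% and 27.8%, and 15 and 8 without LIF, against 28.4% and 27.4%. Most tested genes passed in each of these comparisons, so a high share of calls is not particular to collagens. Of genes with at least 1 CPM, 31.6% to 33.2% were higher and 31.5% to 32.9% lower, and the 7 or 8 of 23 collagen genes that fell are near that share.

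Col4a1 rose from 80.1, 93.2 and 99 CPM to 481, 522 and 522 CPM on soft with LIF, a log2 difference of 2.49 ± 0.06 (edgeR adjusted p = 6.98e-37) and a fold of 5.6. On stiff with LIF it rose from 89.7, 95.8 and 101 to 615, 620.5 and 625 CPM, 2.70 ± 0.06. Without LIF the differences were 2.52 ± 0.05 on soft and 2.52 ± 0.06 on stiff. Col4a2 rose 5.64-fold, 5.92-fold, 6.82-fold and 6.1-fold in the order soft with LIF, soft without, stiff with and stiff without. Neither chain's PD03 libraries overlapped those without PD03. Collagen genes summed to 763 ± 39.1 CPM on soft with LIF and 1296 ± 64.5 CPM with PD03 added, and to 787 ± 28.6 and 1564 ± 4.60 CPM on stiff.

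The fibrillar genes Col1a1, Col5a1, Col11a1, Col5a2 and Col5a3 rose in all 4 comparisons. In the order just given, Col1a1 changed by 1.07, 1.31, 1.81 and 0.99. Col5a2 rose by 2.30, 2.65, 2.72 and 2.12, and Col5a1 by 1.31, 1.07, 1.45 and 1.07. Col1a2 passed in 3 comparisons and was 0.31 (adjusted p = 0.341) on soft with LIF. The FACIT genes Col12a1 (2.05, 2.23, 2.61, 2.02) and Col9a2 (1.75, 1.71, 1.74, 2.03) rose as well, as did Col8a1 (1.57, 0.97, 1.41, 1.75). The fibrillar genes Col27a1 and Col2a1 fell: Col27a1 in all 4 comparisons (-0.49, -0.55, -1.09, -0.88) and Col2a1 in 3 (-0.58, -0.69, -0.71).

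Col18a1 fell, at -0.62, -0.63, -0.67 and -0.74, from 511, 529 and 555 CPM to 325, 346 and 364 CPM on soft with LIF, and its groups did not overlap. Col4a1 was the highest collagen by CPM in the 4 PD03 groups and Col18a1 in the other 7. The type VI chains Col6a5 and Col6a4 fell: Col6a5 was -3.47 ± 0.43, -4.35 ± 0.38, -4.88 ± 0.47 and -2.95 ± 0.40, and Col6a4 was -2.53, -2.14, -2.70 and -1.53. Col6a5 was at 2.42, 2.79 and 2.88 CPM in the soft libraries with LIF and at 0.0996, 0.291 and 0.327 CPM with PD03 added, so its fold rests on a handful of reads. Col8a2 (-3.40, -2.49, -1.40, -2.42), Col7a1 (-0.69, -0.89, -0.62, -0.79) and Col13a1 (-1.05, -0.80, -0.58, -0.74) fell too. Col8a1 and Col8a2, both of the short-chain class, moved in opposite directions.

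Of the rest, Col4a5 and Col17a1 rose in 3 comparisons each, Col22a1 on stiff in both media (1.30, 1.02) and Col6a1 on stiff without LIF alone (0.85). The summed level of the primitive and parietal endoderm list, mostly Lama1 (mean 136 CPM) and Dab2 (52.2 CPM), was 127 to 207 CPM in libraries without PD03 and 259 to 302 CPM with it. Of its 9 genes, 2, 3, 3 and 3 rose and 3, 3, 4 and 2 fell, in the order soft with LIF, soft without, stiff with and stiff without. Gata4 was called lower on soft with LIF (-0.82), on soft without (-0.54) and on stiff with LIF (-0.95). Dab2 and Lama1 of that list rose and Sox7 and Foxa2 fell in each of the 4 comparisons, while Sox17 averaged 0.816 CPM. Smooth muscle markers (Myh11, Des and Myocd) rose too, 1 of 3 on soft with LIF, 2 on soft without, 3 on stiff with and 2 on stiff without, and of the fibroblast markers 2, 2, 2 and 3 of 7 rose and 4, 2, 3 and 3 fell in that order. Embryonic stem cell markers rose in 5, 5, 3 and 4 of 6 cases and 0 fell. Of 3 tested primitive streak and mesoderm markers, 2 fell in each comparison and 0 rose. The part of any cells of these types in the collagen result was not tested.

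Among the 13 genes under 1 CPM that passed the filter, 1 rose and 4 fell with PD03 on soft with LIF, 2 and 5 on soft without, 3 and 2 on stiff with and 4 and 2 on stiff without. Of all tested genes, 27.8% to 29% rose and 26.6% to 28.5% fell, so such counts are not particular to these genes. Col26a1 was lower in all 4 (-1.77, -2.03, -1.85, -1.29) and Col20a1, a FACIT gene, higher in all 4 (1.55, 2.07, 1.21, 1.60). In the other comparisons, Col4a6 was lower on soft in serum + LIF + PD03 (a fold of 0.25, edgeR adjusted p = 0.0224) and lower on stiff than on plastic (-2.21 ± 0.61, adjusted p = 0.0195), and Col10a1 rose with time on stiff (2.13 ± 0.73). These rest on a few reads a library.

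**Figure D5:**
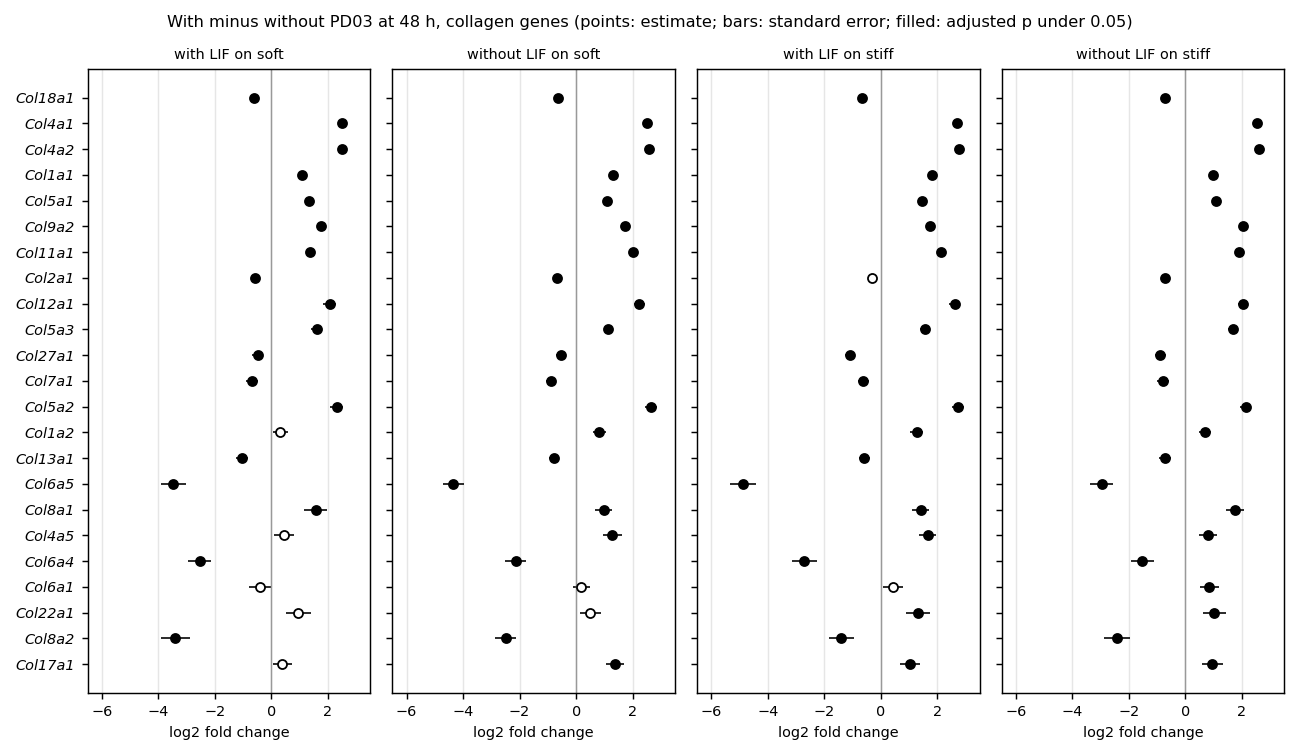
Log2 difference with PD03 minus without, with bars of the standard error, for the 23 described collagen genes in 4 panels: soft and stiff, with and without LIF. Col4a1 and Col4a2 lie near 2.5 in every panel, and Col6a5 is lowest.

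LIF itself moved few collagen genes. On soft without PD03, 0 of 23 passed by edgeR, 4 at an unadjusted p below 0.05 and 0 by DESeq2, against backgrounds of 0.0169% higher and 0% lower. On soft with PD03 the numbers were 0, 2 and 0, against 0.0395% and 0.0678%. On stiff with PD03 they were 0, 6 and 0, against 0.294% and 0.22%. These backgrounds are shares at the adjusted p. At an unadjusted p below 0.05, 1345, 1430 and 1533 of the 17702 tested genes passed, in that order. On stiff without PD03, 2 genes were lower with LIF and 0 higher, against 0.695% lower and 0.712% higher. Leaving out stiff serum + LIF library 1 or 2 ended both calls. The 2 genes were Col1a1 (-0.54 ± 0.14, edgeR adjusted p = 0.0294) and Col18a1 (-0.18 ± 0.05, adjusted p = 0.0259).

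Between 24 h and 48 h in serum + LIF, more collagen genes were called lower than higher, with pool and time coinciding on soft and nearly so on stiff. On soft, 5 fell and 2 rose, against 11.4% of all genes lower and 12.9% higher. On stiff, 10 fell and 1 rose, against 13% and 12.6%. Of genes with at least 1 CPM, 13.7% were lower and 16.5% higher on soft, and 15.8% were lower and 15.8% higher on stiff. In either direction, 7 of 23 collagen genes were called on soft, near the 30.2% of genes with at least 1 CPM. Col7a1 fell to 0.501 times its 24 h level on soft and 0.403 times on stiff. The log2 differences on soft and on stiff were -0.42 and -0.83 for Col5a1, -0.79 and -0.68 for Col12a1, -0.89 and -1.08 for Col1a2 and -1.72 and -0.86 for Col8a1. Col13a1 rose by 1.01 on soft and 0.79 on stiff, and Col18a1 rose on soft (0.12 ± 0.05, edgeR adjusted p = 0.0498). With a pool term the counts were 0 to 3 on soft and 5 to 8 on stiff, and on soft Col18a1 and Col1a2 reversed. Col4a1, Col4a2, Col1a1, Col11a1 and Col2a1 passed on stiff, at -0.40, -0.63, -0.85, -0.66 and -0.43.

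Whether the soft and stiff difference itself changed with time, PD03 or LIF was tested by interaction terms. With time, 2 of 23 collagen genes passed against 0.254% of all genes. Col4a2 changed by 0.73 ± 0.09 (edgeR adjusted p = 8.78e-06) and Col4a1 by 0.43 ± 0.08 (adjusted p = 0.0065), from soft minus stiff values of -0.78 and -0.51 at 24 h to -0.05 and -0.08 at 48 h. On stiff, Col4a2 went from 75.4, 80.8 and 85.6 CPM to 48.4, 53 and 54.4 CPM, and on soft from 43.6, 47.3 and 49.8 to 45.9, 50.6 and 54.4. With a pool term 0 to 2 of these calls were made.

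With PD03 in LIF, Col11a1 was the 1 gene of 23 that passed (-0.77 ± 0.19, edgeR adjusted p = 0.0249), against 1.07% of all genes. The call was lost in 5 of 12 fits that left out a library. Its soft minus stiff value was 0.22 without PD03 and -0.55 with it. With PD03 and no LIF, 0 passed, 2 did at an unadjusted p below 0.05 and 0 by DESeq2, against 0.797% of all genes. With LIF, 0 passed, 5 did unadjusted and 0 by DESeq2 without PD03, against 0.0847%, and 0, 3 and 0 with PD03, against 0.00565%. The shares of all genes here are at the adjusted p. At an unadjusted p below 0.05, 2024, 1719 and 830 of the 17702 tested genes passed in the last 3 tests, in that order.

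Genes that make, secrete and bind collagen were followed with 4 lists: 19 genes of chain modification and folding, 9 of secretion, 14 tested of 15 of processing and cross-linking, and 7 tested of 10 receptors. At 24 h, 4, 1, 3 and 1 genes of these lists were lower on soft and 0 higher by edgeR, and at an unadjusted p below 0.05 the numbers higher were 2, 0, 0 and 1. Of all tested genes, 2.52% were lower and 1.03% higher. Serpinh1, the chaperone (HSP47) that stabilises the procollagen helix, was lower, at -0.88 ± 0.08 (edgeR adjusted p = 1.82e-11), and Creb3l1, a transcription factor of secretory and collagen genes, was lower at -0.41. Bmp1, which cleaves the procollagen C-propeptide, was lower at -0.80, Pxdn, which cross-links type IV, at -0.44 and Itgb1, a chain of the collagen-binding integrins, at -0.38.

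In the media at 48 h, Bmp1 was the 1 gene of these lists that passed in serum + LIF (-0.83 ± 0.16, edgeR adjusted p = 0.00481). In the other 3 media, in the order serum alone, PD03 and LIF with PD03, Serpinh1 was lower on soft at -0.50, -0.51 and -0.72, Creb3l1 at -0.43, -0.47 and -0.57 and Loxl2, a lysyl oxidase of type IV, at -0.69, -0.59 and -0.55. Of the 4 lists, 2, 1, 4 and 1 genes were lower in serum alone, beside 2.77% of all tested genes. In serum + PD03, 3, 1, 4 and 2 were lower and 1 processing gene higher, beside 3.42% and 2.13%. In serum + LIF + PD03, 3, 1, 5 and 3 were lower and 1 chain modification gene higher, beside 4.82% and 2.8%. Soft and stiff libraries came mostly from different pools, and these lists were not examined with a pool term. Serpinh1 in serum + LIF was -0.09 (adjusted p = 0.778). Against plastic, Serpinh1 was lower on both gels (-0.69 on soft and -0.60 on stiff), and of the 4 lists 3, 1, 1 and 1 genes were higher and 3, 1, 4 and 3 lower on soft, beside 5.29% of all tested genes higher and 6.47% lower.

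With PD03, genes of these lists were called in both directions. On soft with LIF, 10 of 19 chain modification genes rose and 4 fell, and 3 of 9 secretion genes rose and 3 fell, beside 27.8% of all tested genes higher and 26.6% lower. Ddr2, a receptor tyrosine kinase for fibrillar collagen, rose by 4.13, 4.35, 4.28 and 4.72 in the order soft with LIF, soft without, stiff with and stiff without. Sparc, a collagen-binding matricellular protein, rose by 1.51, 1.61, 1.70 and 1.69, and Creb3l2 by 1.36, 1.71, 1.61 and 1.90. Fkbp10, a prolyl isomerase of collagen folding, fell, at -1.84, -2.01, -1.60 and -1.59, and P3h4, a partner of the lysyl hydroxylase complex, at -1.64, -1.87, -1.37 and -1.47. The mannose receptor family member Mrc2, which takes up collagen for breakdown, fell, at -0.90, -1.02, -0.62 and -0.97.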

How the data were processed

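RNA of mouse embryonic stem cells was sequenced after lysis, column extraction with digestion of genomic DNA and library preparation with a NuGen kit. The authors deposited raw counts per Ensembl gene for 36 libraries. The submitters' processing notes name STAR 2.5.2a, HTSeq and DESeq, and the build mm10; the strand setting of the counting is not given in the sources used here. All 36 columns matched a group, columns carry the group but no replicate number, and 0 columns were left unmatched.

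Genes were named from Ensembl IDs. Counts were tested with edgeR 4.0.16 (limma 3.58.1, R 4.3.3): the quasi-likelihood test, TMM scaling, filterByExpr by group and 1 coefficient per group over all libraries, with Benjamini-Hochberg adjustment over 17702 genes at 0.05. CPM used TMM-scaled totals. SE is the log2 difference divided by the root of F, and 95% intervals come from the SE by the normal quantile. DESeq2 1.42.0, RLE size factors, no filter, only the groups compared, each library left out, and a sequencing pool term were alternatives. Libraries held 10405696 to 26635239 counts, which sets the counting error of low genes. The 45 pairs of replicates differed beyond sampling noise (chi-square per gene 2.27 to 14.6 over genes with at least 100 counts in the pair), so no library was counted as a repeat. The labels do not say that replicates were separate cultures, so p-values measure the spread between these samples only. The fit was tested on simulated data for the 24 h comparison (17151 genes): 88% of 50 genes halved, 74% of those raised 1.5-fold, 88% of those raised 2-fold and 100% of those raised 3-fold were called, and 4 of 16951 unchanged genes.

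The collagen genes, the pathway and marker lists and the comparisons were chosen with earlier results of these data known. All collagen genes of at least 1 CPM may be named; pathway genes were named when past the threshold with a mean of at least 5 CPM, at most 4 a list with the largest change. Promoter windows are RefSeq's for GRCm38.p6, and 35 of 44 collagen genes matched one.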

Additional observations from a re-analysis of the deposited data

Results flagged for a closer look

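The difference between soft and stiff hydrogels changed between 24 h and 48 h in serum + LIF for both type IV chains, by the interaction term of the edgeR fit: 0.43 for Col4a1 and 0.73 for Col4a2 (log2, soft minus stiff at 48 h minus that at 24 h). Soft and stiff libraries shared a pool at 24 h and not at 48 h, so time and pool cannot be told apart here. At the pool assignment with the smallest change both calls were lost (edgeR adjusted p = 0.256 and 0.0603). For Col11a1 the soft and stiff difference in LIF was lower with PD03 than without, by an interaction of -0.77. Within the 6 soft serum + PD03 libraries, the only group large enough to look for a library far from the others, 0 of 23 genes had one.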

How the results depend on the processing

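No paired analysis was possible because the columns of the count table carry group names and no replicate numbers. The limit of depth is in the genes under about 2 CPM, where a few reads make a fold. With RLE size factors, no filter, DESeq2 or only the groups compared, counts of collagen calls stayed within 1.5 times of those reported apart from these: 6 in serum alone with only the groups compared, 1 for LIF on stiff without PD03 by DESeq2 and with only the groups compared, 1 (no filter) and 2 (only the groups compared) for LIF on stiff with PD03, 2 for the interaction with PD03 in LIF under RLE, no filter and only the groups compared, and 1 for the interaction with LIF without PD03 under no filter. A pool term over 45 assignments gave as its lowest count 0 for soft against stiff in serum + LIF, 2 in serum alone (highest 6), 4 in serum + PD03, 3 in serum + LIF + PD03, 2 against plastic on soft (highest 8) and 3 on stiff. It gave 0 for LIF on stiff without PD03, 0 for time on soft (highest 3), 5 for time on stiff, 0 for the interaction with PD03 in LIF (highest 2) and 0 for that with time. Under it Col27a1 and Col4a5 on soft against plastic reversed to 0.11 and 0.52, and with time on soft Col18a1 reversed to -0.0028 and Col1a2 to 0.0433; the cause was not tested, and the 24 h soft and stiff counts stayed at 6 to 7 and the PD03 counts at 18 to 23. Leaving out 1 library gave 1 to 3 calls for soft against stiff in serum + LIF at 48 h (1 without stiff library 2 or 3 or soft library 1 or 3), 4 to 9 in serum alone (4 to 6 without library 1 or 2 of either gel), 0 to 2 for LIF on stiff without PD03 (0 without LIF library 1 or 2, 1 without serum library 2 or 3), 0 to 4 for the interaction with PD03 in LIF (0 without stiff LIF library 1 or 2, soft LIF library 1 or 2 or soft LIF + PD03 library 1, 2 without stiff LIF library 3 or soft LIF + PD03 library 3, 4 without soft LIF library 3), 0 to 1 for that with LIF without PD03 (1 without soft LIF library 3), and 0 to 1 for synthesis and receptor genes in serum + LIF at 48 h (0 without stiff library 3 or soft library 2). Library numbers follow column order. Each of 45 of 166 named calls was lost in at least 1 such fit, among them Col8a1 in serum + LIF at 48 h, Col18a1, Col11a1 and Col4a5 in serum alone and Col5a2 in serum + LIF + PD03. A minimum of 2 CPM kept 15 genes in place of 23, and with the longest transcript the mean ratios of Col4a1 to Col4a2 and Col1a1 to Col1a2 were 1.75 and 9.97.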
